A study of Mus musculus with 15 samples.

Results

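The lens of the mouse embryo at embryonic day 12.5 (E12.5), a stage at which its primary fibre cells elongate, was compared with the whole embryo across all genes. The comparison used 6 of the 15 RNA-seq libraries of the study, 3 of E12.5 lens and 3 of whole embryo, chosen by their labels, and the 3 libraries each of E10.5 and E14.5 lens were used to show where E12.5 differed from its neighbours. All mice were wild type of the C57BL/6NTac strain and untreated as far as the labels say. Each E12.5 library held a pool of 29 dissected lenses, against pools of 50 at the earlier stage, E10.5, and of 18 (E14.5) or 17 (E16.5) later. The whole-embryo libraries carry the age label E10.5-12.5, and how the days were combined is not stated, so a difference between tissues and a difference between ages cannot be told apart in full. Expression is given in FPKM, the fragments per kilobase of transcript scaled for library size by a method that is not stated, summed over the transcripts of a gene. Of 14615 genes, 14535 reached 1 FPKM in at least 3 libraries and were tested.

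The lens forms from surface ectoderm that thickens beside the optic cup, invaginates and closes into a hollow vesicle. Cells at the back of the vesicle leave the cell cycle, elongate and fill the cavity as primary fibres, while cells at the front remain a dividing epithelium. Fibres accumulate crystallins, the soluble proteins that give the lens its refractive power, and build membranes rich in gap junctions and the water channel aquaporin 0. They later lose their nuclei and organelles, so proteins made early are kept for life.

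All 3 lens libraries carried lens markers, with every crystallin gene higher than in each whole-embryo library, but they were not equally close to one another. Replicate 1 had a lower share of crystallin transcripts (7.27% of the summed FPKM) than replicates 2 and 3 (11.3% and 12.9%), and higher mean levels of periocular mesenchyme markers, 6.07 against 4.92 and 4.49 on the log2(FPKM + 1) scale. Pigment cell, interstitial matrix, endothelial, erythroid and macrophage markers were also highest in replicate 1. Across genes, Pearson's r was 0.980 to 0.989 among the lens libraries and 0.993 to 0.994 among the whole-embryo libraries, and the median SD of a gene was 0.16 and 0.08 on the log2 scale. For the lists whose counts moved most without replicate 1, both counts are given. Sequencing depth is unknown, since the deposited values hold no read counts.

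Fold changes below are E12.5 minus whole embryo on the log2(FPKM + 1) scale, as estimate ± SE, which understates the change of genes with low values. Calls required at least a 2-fold difference and, in limma, an adjusted p under 0.05 (Benjamini-Hochberg). By this rule 1604 genes (11.0%) were higher in the lens and 2568 (17.7%) were lower. Without the fold minimum the counts were 4692 (32.3%) and 5391 (37.1%). At 11043 genes (76.0%) the 3 lens values did not overlap the 3 whole-embryo values. Without crystallins the summed FPKM, the library total used here, was 808205 to 851833 in the lens and 706879 to 735894 in the whole embryo. The split depended on scaling. It was 1300 higher and 3099 lower when crystallins were left out of the library totals and the totals made equal, a change of -0.18 in the all-gene median, and 2126 higher and 2240 lower after quantile normalization. The median over all genes was -0.04. Counts over gene lists are of members tested, and members without a value, such as Tyrp1 and Mlana of pigment cells, are not analysed here. Each list count is to be read beside the shares of all genes, 11.0% higher and 17.7% lower.

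**Figure D1:**
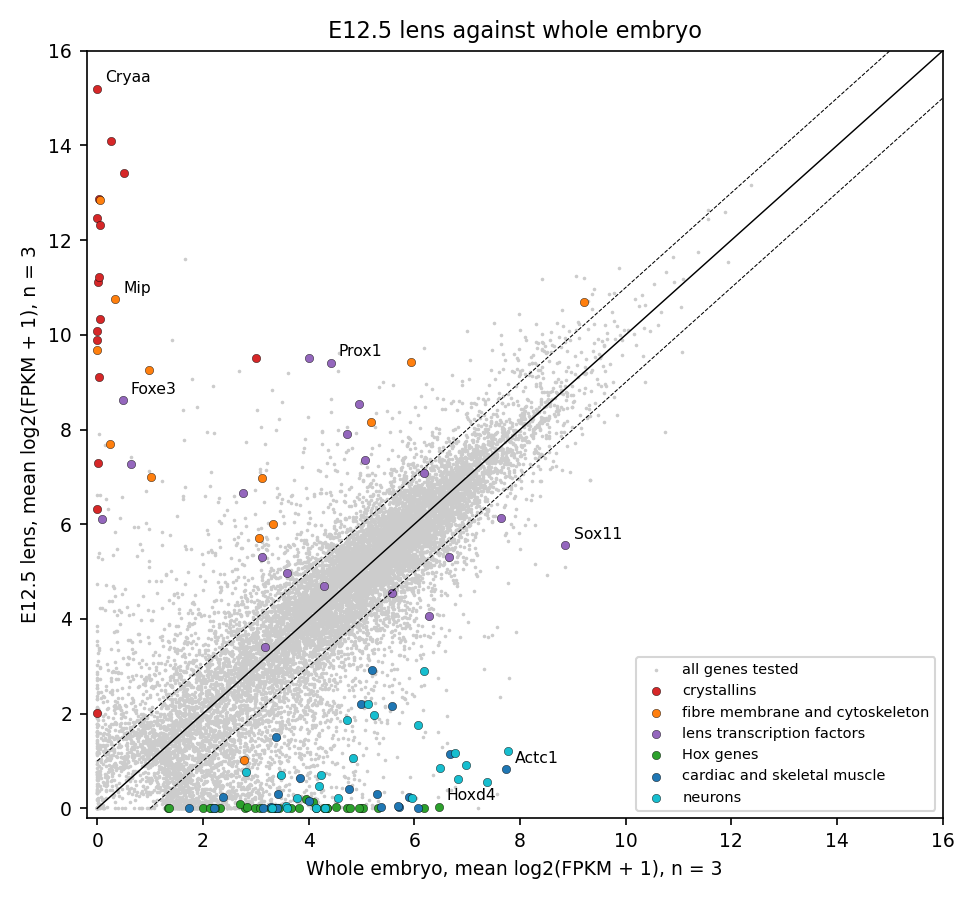
Mean log2(FPKM + 1) of each gene tested in the 3 whole-embryo libraries (horizontal axis) and the 3 E12.5 lens libraries (vertical axis), with the line of equality and dashed lines at a 2-fold difference. Most crystallins lie along the left edge, near 0 in the whole embryo, where the fibre genes averaged 2.70 to 2.74 on this scale. Most Hox, muscle and neuronal genes lie along the bottom, near 0 in the lens.

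All 16 crystallin genes were called higher in the lens, beside 11.0% of all genes. Their median fold change was 10.68, against -0.04 over all genes, and it includes 6 genes listed at 0 in every whole-embryo library, whose fitted differences depend on the pseudocount. Alpha-A crystallin, a small heat shock protein and chaperone (Cryaa; mm10, chromosome 17, 31677807 to 31681733), reached 25806, 41766 and 49433 FPKM in lens replicates 1 to 3 and was listed at 0 in the whole embryo. Its relative Cryab, which many other tissues also make, stood at 573, 841 and 809 FPKM against 6.93, 7.42 and 6.77 (6.51 ± 0.14, adjusted p = 1.62e-14). Cryab was the crystallin with the highest whole-embryo level, and its groups did not overlap.

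Of the beta-crystallins, which form dimers and larger complexes, Cryba1 (chromosome 11, 77718615 to 77725283) was at 12420.3, 18859 and 22828 FPKM against 0.11, 0.28 and 0.23 (13.83 ± 0.17, adjusted p = 2.63e-15). Cryba4 was at 1539, 2472 and 3518 FPKM and Cryba2 at 1480.2, 2457 and 3004, both at or under 0.1 in each whole-embryo library. Every one of these genes was lowest in lens replicate 1, as the crystallin list as a whole was. Crybb2, known as a crystallin of later lens life, was the lowest of the 16, at 2.18, 3.12 and 3.98 FPKM, and Crygs, another late form, was at 67.03, 86.7 and 84.8. Both were listed at 0 in the whole embryo.

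The gamma-crystallins, monomers of the dense fibre core, were led by Cryga at 3279, 6139 and 9006 FPKM and Cryge at 3325, 5377 and 7341. Crygd, Crygc and Crygb stood at 1182 ± 570, 982 ± 319 and 602 ± 299 FPKM (SD, n = 3), and Crygf at 172 ± 87.8. These are neighbouring genes with very similar sequences, so reads may have been divided among them and their separate levels are uncertain. Crygn, a form that lies between the beta and gamma families, was at 838, 1405 and 1808 FPKM against 0, 0.08 and 0.05.

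The promoters of 4 crystallins and of Mip, the aquaporin gene of fibres, are shown because these genes were among the 15 with the highest fold changes and were all lowest in lens replicate 1. The sequences are from RefSeq (GRCm38.p6, the assembly also called mm10) and are 300 bases long, of which the last 50 follow the annotated start, 5′ to 3′ on the gene's strand. Capitals mark TGCTGA, the core of the element bound by Maf factors, on either strand (TCAGCA on the opposite one), and TATAAA, the TATA box, also on either strand. The windows lie at chr17:31677681-31677980 (plus strand), chr11:77725244-77725543 (minus), chr5:112255570-112255869 (plus), chr5:113081535-113081834 (minus) and chr10:128225560-128225859 (plus).
Cryaa: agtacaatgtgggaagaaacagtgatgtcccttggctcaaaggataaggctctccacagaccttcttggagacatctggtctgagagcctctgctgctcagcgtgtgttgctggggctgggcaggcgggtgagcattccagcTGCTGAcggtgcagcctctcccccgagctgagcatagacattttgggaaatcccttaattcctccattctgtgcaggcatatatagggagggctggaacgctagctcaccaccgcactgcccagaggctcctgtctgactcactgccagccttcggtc
Cryba1: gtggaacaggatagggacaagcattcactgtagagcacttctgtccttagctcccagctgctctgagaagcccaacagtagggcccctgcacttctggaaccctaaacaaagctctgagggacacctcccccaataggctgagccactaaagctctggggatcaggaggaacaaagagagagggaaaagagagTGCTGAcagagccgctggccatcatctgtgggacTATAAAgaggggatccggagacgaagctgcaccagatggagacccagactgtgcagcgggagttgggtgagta
Crybb1: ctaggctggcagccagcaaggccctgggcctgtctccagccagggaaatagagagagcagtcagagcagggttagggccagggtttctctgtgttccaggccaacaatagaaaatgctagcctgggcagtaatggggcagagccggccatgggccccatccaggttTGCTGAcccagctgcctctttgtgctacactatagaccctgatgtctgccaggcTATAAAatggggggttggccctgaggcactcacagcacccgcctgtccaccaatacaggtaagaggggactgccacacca
Crybb3: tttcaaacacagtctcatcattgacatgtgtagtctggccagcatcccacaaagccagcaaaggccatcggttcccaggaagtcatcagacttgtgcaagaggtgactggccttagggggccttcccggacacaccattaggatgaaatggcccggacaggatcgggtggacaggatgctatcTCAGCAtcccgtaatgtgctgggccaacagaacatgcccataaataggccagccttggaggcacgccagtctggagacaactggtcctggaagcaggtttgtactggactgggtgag
Mip: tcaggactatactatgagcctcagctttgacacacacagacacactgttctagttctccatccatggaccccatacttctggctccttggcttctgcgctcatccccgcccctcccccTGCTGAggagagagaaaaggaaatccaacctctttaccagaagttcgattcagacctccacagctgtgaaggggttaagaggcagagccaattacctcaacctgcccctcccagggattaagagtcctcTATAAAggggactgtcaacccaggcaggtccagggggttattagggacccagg

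Distances here are from the start in RefSeq, which for Cryaa (31677931), Cryba1 (77725293) and Mip (128225810) differs from the GENCODE bounds given with the values, so that the Cryaa motif lies within those bounds. TGCTGA began 108 bases before the start of Cryaa, 57 before Cryba1, 84 before Crybb1, 132 before Mip and, on the opposite strand, 67 before Crybb3. Of the 15 crystallins with a promoter in the table, 10 (66.67%) held TGCTGA on either strand within the window, compared with 5859 of 27025 genes (21.68%). Cryba4 held 3 copies. Of 12 fibre membrane and cytoskeleton genes 4 (33.33%) held it. TATAAA began 23 bases before Cryba1, 30 before Crybb1 and 3 before Mip, and was found in 4 of the 15 crystallin promoters (26.67%), in 4 of the 12 fibre genes (33.33%) and in 15.67% of all genes. The 2 motifs share no base in any window shown. A match is a description of these letters and not of a bound site.

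The genes of fibre membranes and cytoskeleton were higher with 1 exception. Of 13 tested 12 were higher and 1 lower, with a median of 3.85. Connexin 46, a gap junction protein of fibres (Gja3), was at 501, 578 and 796 FPKM against 1.08, 0.83 and 1 (8.29 ± 0.17, adjusted p = 1.42e-14) and was highest in lens replicate 3. Mip (chromosome 10, 128225838 to 128231812) was at 1266, 1605 and 2556 FPKM against 0.15, 0.32 and 0.35 (10.41 ± 0.19, adjusted p = 2.87e-15), with every lens value far above every whole-embryo value. Lim2, which codes for an abundant membrane protein of fibres, was at 597, 815 and 1123 FPKM and listed at 0 in the whole embryo. The gene Gm26847, on the opposite strand, overlaps the end of Mip and was at 1463, 1824 and 2895 FPKM (10.31 ± 0.19). No source used here says that the libraries kept strand, so reads in the stretch that the 2 genes share, 128230590 to 128231812, cannot be told apart.

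The beaded filament proteins Bfsp1 and Bfsp2, the intermediate filament pair of fibres, stood at 85.8, 133 and 178 and at 144, 221 and 276 FPKM (5.98 ± 0.20 and 7.45 ± 0.20). Periaxin (Prx), ankyrin-B (Ank2) and the adhesion molecule NrCAM (Nrcam), which join the fibre membrane to its skeleton, were higher by 3.85 ± 0.13, 3.47 ± 0.15 and 2.98 ± 0.20, and the actin-capping protein Tmod1 by 2.64 ± 0.25. Vimentin (Vim), shared with many other cells, was at 1681 ± 274 against 591 ± 11.9 FPKM (1.49 ± 0.13). The small heat shock gene Hspb1 was the exception, at 1.70, 0.88 and 0.64 FPKM against 6.89, 4.85 and 5.99 (-1.76 ± 0.28, adjusted p = 5.42e-05). Its groups did not overlap, and all 3 lens values were low.

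**Figure D2:**
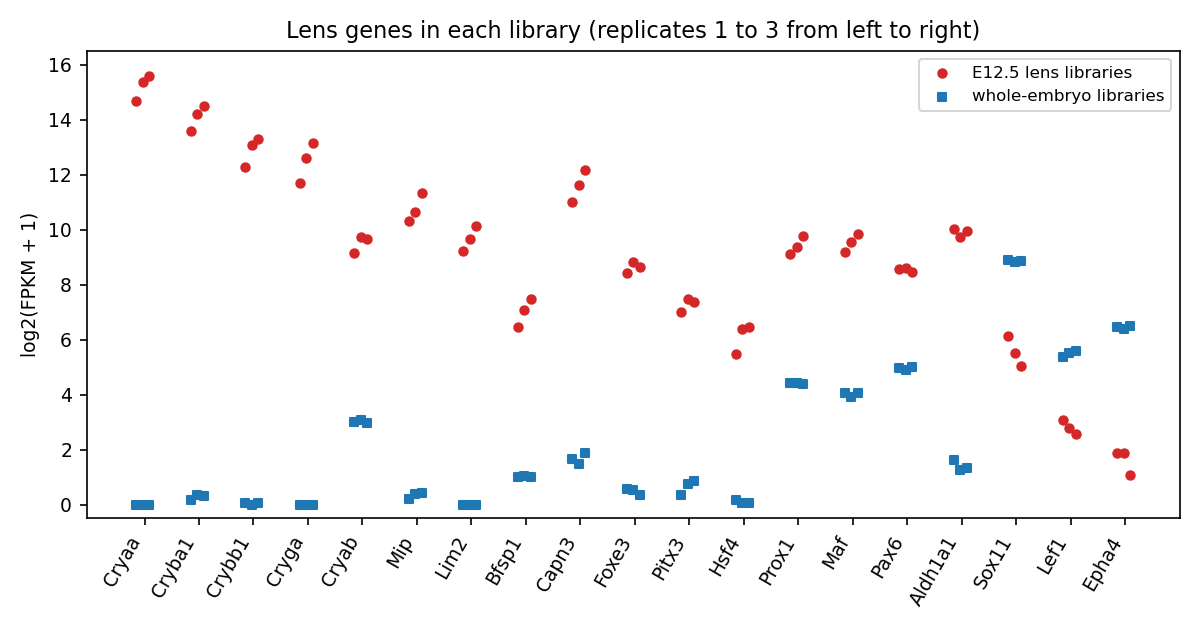
log2(FPKM + 1) of 19 genes in each of the 3 E12.5 lens libraries (red circles) and 3 whole-embryo libraries (blue squares), replicates 1 to 3 from left to right. Replicate 1 of the lens is the lowest for Cryaa, Cryba1, Mip and Capn3, and the last 3 genes, Sox11, Lef1 and Epha4, are lower in the lens.

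Of 19 lens transcription factors tested, 11 were higher, 5 lower and 3 not called, with a median of 2.19. The forkhead factor Foxe3, which keeps the lens epithelium dividing, was at 345, 451 and 393 FPKM against 0.48, 0.44 and 0.27 (8.15 ± 0.13, adjusted p = 1.39e-15). Pitx3, needed for the early vesicle, was at 128, 175 and 164 against 0.26, 0.66 and 0.82 (6.64 ± 0.14). Hsf4, the heat shock factor of fibres, was at 43.3, 83.1 and 86.5 against 0.11, 0.04 and 0.04 (6.02 ± 0.19). For all 3 genes the groups were far apart, and Hsf4 was lowest in lens replicate 1.

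The factors that drive fibre elongation and crystallin genes were also higher. Maf, the large Maf factor of fibres, stood at 576, 749.8 and 906 FPKM against 15.6, 14.1 and 15.5 (5.51 ± 0.14, adjusted p = 1.28e-13). Prox1, a homeobox factor required for elongation, stood at 553, 663 and 859 against 20.5, 20.6 and 19.9 (4.995 ± 0.13). Sox1, a regulator of gamma-crystallins, was higher by 3.18 ± 0.16 and its relatives Sox2 and Sox11 were lower, with log2 differences of -2.21 and -3.29, Sox11 at 68.97, 44.8 and 32.3 against 478, 453 and 459 FPKM. Pax6, the paired-box factor of the eye field, was at 378, 383 and 352 against 30.2, 28.8 and 30.7 (3.59 ± 0.06), nearly level among the lens libraries. Six3, Mafg and Gata3 were among the other higher factors. Meis1, Meis2 and Hsf2 were lower, and Zeb2, Tfap2a and Mafk were not called. Hsf2 stood at -1.02 ± 0.12, close to the fold minimum, and lost its call when lens replicate 2 or whole-embryo replicate 1 was left out.

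Of 6 genes of lens RNA-binding proteins, which act on mRNA in long-lived fibre cells, 4 were higher and 2 not called. Tdrd7, a Tudor protein of RNA granules, was at 323, 454 and 639.9 FPKM against 9.16, 9.70 and 8.07 (5.51 ± 0.18, adjusted p = 1.37e-12). Rbm24 was at 308, 390.1 and 465 against 10.98, 10.02 and 9.78 (5.09 ± 0.15), Caprin2 was higher by 4.23 ± 0.18 and Celf1 by 1.85 ± 0.12. All were highest in lens replicate 3 and the groups did not overlap. Stau1 and Stau2 stood at -0.12 and -0.31.

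Genes of nuclear breakdown and of proteases were mostly not called at this stage, 13 of 17. The calpain Capn3, whose lens forms cleave fibre proteins, was at 2039, 3181 and 4626 FPKM against 2.12, 1.76 and 2.68 (9.94 ± 0.22, adjusted p = 2.21e-14). Dnase2b, the nuclease that degrades fibre DNA later in development, was at 0.08, 0.29 and 0.58 FPKM and listed at 0 in the whole embryo. Of the 17, 2 were higher and 2 lower, beside 11.0% and 17.7% of all genes. The lamin Lmnb1 was among the lower (-1.28 ± 0.12). Without lens replicate 1, Casp6 and Lbr were also called lower, which makes 4.

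Many mitosis genes were lower in the lens and some cell cycle inhibitors higher. Of 27 mitosis genes 14 were lower and none was higher, beside 17.7% of all genes lower. Their median was -1.03, against -0.04 over all genes, and single genes ran from -1.41 (Kif23) to -0.26 (Ncapd2). The proliferation marker Mki67 was at 304, 200.02 and 226 FPKM against 567, 579 and 579 (-1.26 ± 0.16, adjusted p = 4.66e-06), and Ccna2, cyclin A2, at 109, 92.7 and 86.3 against 253, 233 and 234 (-1.32 ± 0.16). All lens values lay below all whole-embryo values, and replicate 1 was the highest of the lens libraries in both. Without it 21 of the 27 were lower. Of 28 DNA replication genes 10 were lower and 18 not called, with a median of -0.92, led by Orc1 (-1.79 ± 0.21) and Rrm2 (-1.56 ± 0.13), and 17 were lower without replicate 1. With crystallins left out of the totals 19 replication genes and 21 mitosis genes were lower, and after quantile normalization 16 and 21. Pcna, the replication clamp, stood at 154, 126 and 115 against 149, 131 and 137 FPKM (-0.09 ± 0.12) and was not called.

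Of 12 genes of cell cycle exit, 3 were higher and 9 not called. The inhibitor p57 (Cdkn1c), which withdraws fibre cells from the cycle, was at 698, 919 and 935 FPKM against 342, 299.5 and 321 (1.39 ± 0.12, adjusted p = 9.37e-08). Cdkn2b, inhibitor p15, was at 16.4, 8.24 and 4.77 against 0.78, 0.44 and 0.62 (2.60 ± 0.28), and Cdkn2a, which codes for p16 and p19Arf, at 6.66, 5.07 and 2.55 against 0.07, 0.08 and 0 (2.39 ± 0.23). The last pair were low in level, highest in lens replicate 1 and not overlapping the whole embryo. Cdkn1b, inhibitor p27, was at 68.6 ± 3.49 against 60.4 ± 2.35 FPKM and was not called, and Rb1 stood at -0.32.

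FGF from the retina is the main signal for fibre differentiation. Of 24 FGF pathway genes 5 were higher, 6 lower and 13 not called, beside 11.0% higher and 17.7% lower of all genes. The higher genes were the receptor Fgfr3 (1.33 ± 0.21), the ETS factors Etv5 and Etv1, which FGF signals induce (1.49 ± 0.11 and 1.99 ± 0.11), and the inhibitors Spry1 and Spry2 (1.53 ± 0.11 and 1.07 ± 0.12). Etv5 was at 108, 138 and 152 FPKM against 47.6, 45.04 and 45.2, with no overlap. Of the other feedback inhibitors Dusp4, Dusp6 and Il17rd were lower, Dusp4 at 11.8, 12.2 and 11.1 against 64.6, 60.1 and 61.9 FPKM (-2.31 ± 0.09, adjusted p = 1.84e-11). The other lower genes were Fgf8, Fgf10 and Fgfr4. Spry2 lost its call without lens replicate 2, and Dusp6 without lens replicate 3 or whole-embryo replicate 1. Fgfr1 and Fgfr2 stood at 0.07 and 0.02.

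In the BMP and TGF-beta pathway, which takes part in lens induction and fibre differentiation, 1 of 35 genes was higher, 11 were lower and 23 not called, with a median of -0.75. Tgfb2 was the higher one, at 142, 131 and 153 against 46.5, 44.3 and 47.5 FPKM (1.60 ± 0.12). The ligand Bmp4, required for lens induction, was at 3.98, 3.82 and 1.30 against 26.2, 28.8 and 29.6 (-2.94 ± 0.37), and Bmp7 stood at 47.04, 31.7 and 27.7 against 36.5, 32.9 and 35.9 (-0.02 ± 0.15), with overlap. The BMP antagonists Chrd, Nog and Grem1 were lower, and Id4 was at -3.11 ± 0.17, while Id1, Id2 and Id3, targets of BMP signals, were not called.

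Of 23 Notch pathway genes 2 were higher and 7 lower, beside 11.0% and 17.7% of all genes. The ligand Jag1, needed for fibre growth, was at 314, 306 and 389 FPKM against 44.4, 44.5 and 42.5 (2.90 ± 0.10, adjusted p = 2.07e-12), and the glycosyltransferase Lfng, which modifies Notch, was higher by 1.44 ± 0.11. The Delta ligands of neural tissue Dll1 and Dll3 were lower, with log2 differences of -3.82 and -4.04, and Notch1 was at -1.20. The receptor Notch3 and the target Hes1 were not called.

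Of 41 Wnt pathway genes 6 were higher and 18 lower, beside 11.0% and 17.7% of all genes. The secreted inhibitors Sfrp1 and Sfrp2 were at 993, 1136 and 1613 and 367, 299 and 256 FPKM, against 182 ± 5.41 and 47.1 ± 3.60 in the whole embryo (2.74 ± 0.14 and 2.67 ± 0.19). Dkk3, a divergent member of the Dickkopf family, was at 493, 529 and 767 against 11.1, 11.3 and 11.2 (5.59 ± 0.15, adjusted p = 1.55e-13). Lens values of all 3 lay above whole-embryo values. Wnt5b, Wnt7b and the receptor Lgr4 were also higher. The targets and nuclear factor of canonical signals Axin2 and Lef1 were lower, with log2 differences of -1.42 and -2.67, as were the ligands Wnt1, Wnt3a, Wnt4, Wnt5a, Wnt6 and Wnt11. Wnt7a and Rnf43 lost their calls when lens replicate 1 or 2 was left out. The list median was -0.72.

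Ephrin signals guide cell packing, and of 20 genes of Eph receptors and ephrins 3 were higher and 12 lower, with a median of -1.04. Epha2, an Eph receptor linked to cataract, was at 62.5, 63.8 and 64.05 FPKM against 9.04, 9.46 and 8.47 (2.69 ± 0.10, adjusted p = 3.78e-12), and Efnb2 at 240.5, 254 and 264 against 112, 98.7 and 105 (1.25 ± 0.07). Epha5 was the other higher gene (1.22 ± 0.20). Epha4 and Epha3 were lower, with log2 differences of -4.83 and -4.10, Epha4 at 2.69, 2.71 and 1.09 against 87.9, 82.8 and 88.2 FPKM. Efna5 stood at 0.36 ± 0.10 and was not called.

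In the retinoid pathway 4 of 19 genes were higher and 6 lower, beside 11.0% and 17.7% of all genes. The retinaldehyde dehydrogenase Aldh1a1, which also serves as an abundant enzyme of lens cells, was at 1048, 845 and 978 FPKM against 2.09, 1.40 and 1.51 (8.49 ± 0.18, adjusted p = 1.32e-14). Aldh1a3 was at 99.7, 41.6 and 41.5 against 6.68, 4.51 and 5.72 (3.11 ± 0.46), and Stra6, the receptor for retinol-binding protein, at 116 ± 20.2 against 37.6 ± 0.41 (1.59 ± 0.12). Cyp26a1, which degrades retinoic acid, was higher by 1.23 ± 0.27. The binding proteins Crabp1 and Crabp2 were lower, with log2 differences of -5.04 and -1.81, and Rarg and Cyp26b1 were at -2.02 and -1.86.

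Of 26 genes of the lens capsule, the thick basement membrane that lens cells secrete, 11 were higher and 5 lower. Col4a1 and Col4a2, the main collagen IV pair, were at 2077, 2055 and 2944 and 919.9, 919 and 1283 FPKM (2.76 ± 0.18 and 2.36 ± 0.17). Their partners Col4a5 and Col4a6 were higher by 3.59 ± 0.16 and 4.29 ± 0.17, nidogen Nid1 by 3.10 ± 0.12, and the laminins Lama1 and Lamb1 by 1.60 ± 0.15 and 1.60 ± 0.10. Sparc, which binds collagen IV, was at 1237, 1335 and 1639.5 against 246, 258 and 256 FPKM (2.46 ± 0.13). Lama5 and the perlecan gene Hspg2 were the other higher members apart from Col15a1. Frem1, Fras1, Agrn and Lamc3 were among the lower members. Fras1 lost its call without lens replicate 2 and Agrn without lens replicate 3. Col15a1 was higher by 1.26 ± 0.40 and lost that call without lens replicate 1.

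Of 22 genes of interstitial matrix, made mainly by fibroblasts, 1 was higher, 8 were lower and 13 not called. Their median was -1.20. Periostin (Postn) was at 13.2, 8.55 and 6.17 FPKM in lens replicates 1 to 3 against 69.9, 109 and 68.3 (-3.04 ± 0.75, adjusted p = 0.00231). Col1a1, a chain of collagen I, was at 112, 38.5 and 27.4 against 177, 269 and 219 (-2.13 ± 1.30, adjusted p = 0.159) and was not called. Replicate 1 was the highest lens library for Col1a1, and all 3 lay below the whole embryo. Without replicate 1, 12 of the 22 were lower, 12 were after quantile normalization, and 13 were when only E12.5 lens and whole embryo were fitted. Col6a3, a collagen VI chain, was higher, at 91.1, 94.9 and 119 against 17.5, 21.7 and 21.2 (2.28 ± 0.64), while Col6a2 was lower (-1.59 ± 0.39).

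Of 29 cadherin, catenin and integrin genes 6 were higher, 6 lower and 17 not called, beside 11.0% higher and 17.7% lower of all genes. N-cadherin (Cdh2), the main cadherin of fibres, was at 702, 687 and 945 FPKM against 204, 204 and 203 (1.91 ± 0.11). E-cadherin (Cdh1), kept by the lens epithelium, was at 103, 111 and 129.7 against 24.3, 23.4 and 22.7 (2.24 ± 0.10), and Cdh4, Ctnnd2 and the integrins Itga6 and Itga2 were higher as well. All had separate groups. Cdh3, Cdh6, Cdh11, Cdh13, Itga4 and Itga8 were lower, and Cdh6 lost its call without lens replicate 2.

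The cytoskeleton and transport lists held genes in both directions. Of 29 genes of microtubules and motors 6 were higher, with Map7, which stabilises microtubules, at 298, 348 and 376 FPKM against 7.74, 6.11 and 7.54 (5.39 ± 0.10, adjusted p = 2.48e-15) and Tuba1a at 1669, 1936 and 1957 against 669, 661 and 633. The 8 lower ones included the neuronal genes Stmn2, Stmn3, Mapt and Map2. Of 31 pumps and transporters 8 were higher and 10 lower. The glucose transporter Slc2a1 was at 657, 682 and 787 against 137, 129.98 and 130.3 FPKM (2.41 ± 0.09), the cystine carriers Slc7a11 and Slc3a2 were higher by 2.82 ± 0.18 and 2.27 ± 0.08, and the glutamine carrier Slc38a3 by 4.96 ± 0.22. The neuronal glucose transporter Slc2a3 was lower (-3.26 ± 0.21), as were the monocarboxylate carriers Slc16a1 and Slc16a3.

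Redox and energy genes showed a few large differences beside many that were not called. Of all genes 11.0% were higher and 17.7% lower. Glutathione synthetase (Gss), which completes the tripeptide that protects lens proteins, was at 193, 282 and 344 FPKM against 6.80, 8.11 and 7.92 (4.96 ± 0.16, adjusted p = 1.1e-12), while the other synthesis genes Gclc and Gclm stood at -0.12 and 0.92 and were not called. Of 34 glutathione and antioxidant genes 5 were higher and 5 lower. Of 17 glycolysis genes 3 were higher, Gapdh among them (1.42 ± 0.12), and 3 lower, with Ldhb at -2.28 ± 0.21. Eno1 was called higher (1.12 ± 0.12), but stood at -0.11 with reference transcripts alone. Of 15 hypoxia response genes 5 were higher, including Vegfa (1.56 ± 0.13) and P4ha1 (1.92 ± 0.10). In cholesterol and fatty acid synthesis 3 of 30 were higher, led by the desaturase Scd2 at 2384, 2352 and 3537 against 968, 919 and 924 FPKM (1.53 ± 0.17). Autophagy had 1 of 22 higher, Wipi1 (1.58 ± 0.13), and 2 without lens replicate 1, without lens replicate 3 or with a pseudocount of 0.1. Chaperones had 2 of 29 higher, with Hspa8 at 1.98 ± 0.13. The shares called higher in cholesterol and fatty acid synthesis, autophagy and chaperones were under the 11.0% of all genes. With crystallins left out of the totals the higher counts were 2 for glycolysis, 3 for glutathione and antioxidant genes, 1 for cholesterol and fatty acid synthesis and 1 for chaperones, and after quantile normalization 1 glycolysis gene and 3 autophagy genes were higher.

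Ribosomal protein genes were higher together. Of 79 cytosolic ribosomal protein genes 55 were higher and none lower, with a median of 1.18. The groups did not overlap at any of the 79, beside 76.0% of all genes. Rps2 was at 1054, 1138 and 1084 FPKM against 292, 232 and 247 (2.09 ± 0.10, adjusted p = 1.27e-10) and Rpl29 at 426, 515 and 449.7 against 82.3, 87.7 and 69.9 (2.52 ± 0.10). The count was 39 with crystallins left out of the totals and 27 after quantile normalization. Of 78 respiratory chain genes 14 were higher and none lower, led by Ndufa1 (2.83 ± 0.11), and 8 were with crystallins left out. Of 76 mitochondrial ribosomal genes 6 were higher (3 with crystallins left out), and 4 of 39 proteasome genes (2 with crystallins left out), both shares under the 11.0% of all genes. Of 30 splicing factor genes of the SR and hnRNP families none was higher and 3 were lower, with 11 lower after quantile normalization.

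Processed pseudogenes, the copies of spliced mRNAs, went the other way. Of 283 tested 237 (83.75%) were lower and 6 higher, with a median of -1.66, beside 16.16% lower and 11.02% higher of 12782 protein-coding genes. Rps2-ps13 was at 0.16, 0.24 and 0.14 FPKM against 104, 79.1 and 77.8 (-6.21 ± 0.14), opposite to its parent Rps2. The processed pseudogenes Gm13394 and Gm10182, also among the 15 genes with the lowest fold changes, were at 0, 0 and 0 FPKM against 156, 139 and 145 and at 0.47, 0.24 and 0.22 against 98.4, 92.5 and 100. Of the same 15, Gm10260, annotated in GENCODE as a protein-coding retrogene, was at 0.62, 0.12 and 0.43 against 115, 104 and 108, and Gm15662, for which no annotation was found, at 0.39, 0.24 and 0.29 against 155, 88.9 and 78.2. Such copies can share reads with their parents, and how the counting divided those reads is not stated. When 74 named pseudogenes were added to their 62 parents, a step chosen after these values were seen, Rps2 stood at 1.51 and 53 ribosomal protein genes were higher. Only pseudogenes named after their parent were added, so Gm13394 and Gm10182 were not. The step therefore cannot show how far shared reads bear on the ribosomal count.

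Hox genes, which pattern the trunk and limbs, were all lower. All 37 tested were called lower, and 31 were listed at 0 in every lens library. Their fitted median was -3.67 and depends on the pseudocount. Hoxd4 was at 0.08, 0 and 0 FPKM against 76.2, 105 and 82.3 (-6.42 ± 0.13, adjusted p = 1.19e-14), and Hoxb9 was listed at 0 against 74.5, 68.5 and 73.6. The summed FPKM of the list was 0.21 to 0.63 in the lens libraries and 631 to 662 in the whole embryo.

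Marker genes of muscle, neurons, cartilage and limb mesenchyme, and liver were also mostly lower. All 22 genes of cardiac and skeletal muscle and all 24 neuronal genes were lower, as were 22 of 25 genes of cartilage and limb mesenchyme and 9 of 11 liver genes. The cartilage and limb list is not separate from the eye. It shares Twist1, Prrx1 and Foxc2 with the periocular mesenchyme list and Tbx5 with the list of neural retina and optic cup. The cardiac actin Actc1 was at 0.7, 1.30 and 0.43 FPKM against 209.8, 219 and 210.2 (-6.91 ± 0.24), and the ventricular myosin light chain Myl2 was listed at 0 in the lens against 67.4, 65.1 and 66.5. The neuronal genes Dcx, Nefm, Ina and Nefl stood at -6.82 ± 0.20, -6.57 ± 0.43, -6.21 ± 0.28 and -6.05 ± 0.31, and the neural factor Pou3f2 at -5.81 ± 0.15. Alpha-fetoprotein of liver and yolk sac (Afp) had the lowest fold change of the named genes, at 0.06, 0.34 and 0.35 FPKM against 181, 184 and 200.04 (-7.25 ± 1.05, adjusted p = 2.22e-05). The cartilage genes Col9a1 and Col9a2 were not called, at 108, 55.8 and 45.01 against 63.8, 57.9 and 62.7 FPKM for Col9a1, with overlap, while Col2a1 and Sox9 were lower. In such bulk libraries fewer cells of a type and less RNA per cell cannot be told apart.

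Genes of surface epithelium, the tissue from which the lens arises, were mostly lower in it. Of 13 genes of surface and corneal epithelium 11 were lower, 1 higher (Cdh1) and 1 not called. Trp63, the p53 relative of stratified epithelia, was at 0.55, 0.06 and 0.22 FPKM against 16.7, 14.4 and 15.4 (-3.71 ± 0.15, adjusted p = 2.22e-11), and the keratins Krt5 and Krt8 were lower, with log2 differences of -2.84 and -2.48.

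Among 19 imprinted growth genes 3 were higher and 8 lower. Dlk1, a Delta-like protein of fetal growth, was at 6.26, 3.30 and 3.18 FPKM against 197, 195 and 193 (-5.27 ± 0.50, adjusted p = 2.9e-07), and Peg10, Plagl1 and Zim1 were lower, with log2 differences of -2.39, -2.17 and -1.87. Meg3, from the same imprinted domain as Dlk1, was higher (1.06 ± 0.19), as were Cdkn1c and H19. Meg3 lost its call without lens replicate 2 or whole-embryo replicate 1, and H19 without lens replicate 3. H19 stood at 1.08 ± 0.18 and at -0.81 after quantile normalization, and with that scaling, or with crystallins left out, 1 of the 19 was higher. Igf2, next to H19, was at 2786, 3050.5 and 3906 against 1896, 1909 and 1879.7 FPKM and was not called.

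Transcripts of cells around and in the eye were present in the lens libraries, and most were highest in replicate 1. All 6 pigment cell genes tested were higher than in the whole embryo. Pmel, of pigment granules, was at 48.6, 9.24 and 10.3 FPKM against 0.74, 1.28 and 1.28 (3.10 ± 0.53). The summed pigment level was 29.6 to 108 FPKM in the lens and 5.41 to 8.41 in the whole embryo, and 4 of 6 were called without replicate 1. Of 13 genes of neural retina and optic cup 5 were higher, among them Six6, a homeobox factor of the optic cup, at 29.2, 13.3 and 8.25 against 1.01, 0.88 and 1.20 (2.97 ± 0.37), and 5 lower; their summed level was 72.7 to 197 against 164 to 190 FPKM. All 6 pigment genes and 4 of the 5 higher retinal genes, all but Atoh7, were highest in replicate 1. Without lens replicate 3 the lower retinal genes were 3. Their part in the other results was not tested.

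Of 11 periocular mesenchyme genes none was higher and 3 were lower, Twist1, Prrx1 and Eya2, and 5 were lower without replicate 1 or with reference transcripts alone, and 6 when only E12.5 lens and whole embryo were fitted. Their summed level was 460 to 1306 FPKM in the lens and 1661 to 1814 in the whole embryo. No endothelial gene was called in either direction, 0 of 13, with Cdh5 at 121, 64 and 57.9 against 72.99, 72.2 and 71.9 FPKM. At an unadjusted p under 0.05 in limma there were 2, Egfl7 and Sox17, and Egfl7 had an adjusted p of 0.011 with a fold change of 0.49. The groups did not overlap for 3 of the 13, beside 76.0% of all genes.

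Macrophage genes were higher in 11 of 14, with none lower. The receptor Csf1r was at 41.7, 27.6 and 20.5 FPKM against 7.26, 8.29 and 7.44 (1.78 ± 0.31) and the complement gene C1qa at 13.8, 11.7 and 9.84 against 2.05, 2.59 and 2.70 (1.89 ± 0.25, adjusted p = 8.75e-06). The summed level was 125 to 247 FPKM in the lens against 50.1 to 55.1, and 10 genes were called without replicate 1. Of 14 erythroid genes 3 were higher, 8 lower and 3 not called. The adult globin Hba-a2 was at 334, 231 and 183 against 3.69, 3.27 and 3.98 (5.71 ± 0.35) and the embryonic globin Hbb-bh1 at 518, 215 and 134 against 1970.1, 1410.1 and 1783 (-2.79 ± 0.39). Hba-a1 and Hba-a2 are near-identical copies, as are Hbb-bs and Hbb-bt, so how reads were divided within each pair is uncertain. Hbb-bs lost its call without lens replicate 1, and 5 genes rather than 8 were lower without lens replicate 3. The summed erythroid level was 3766 to 8258 FPKM in the lens and 7677 to 9813 in the whole embryo.

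**Figure D3:**
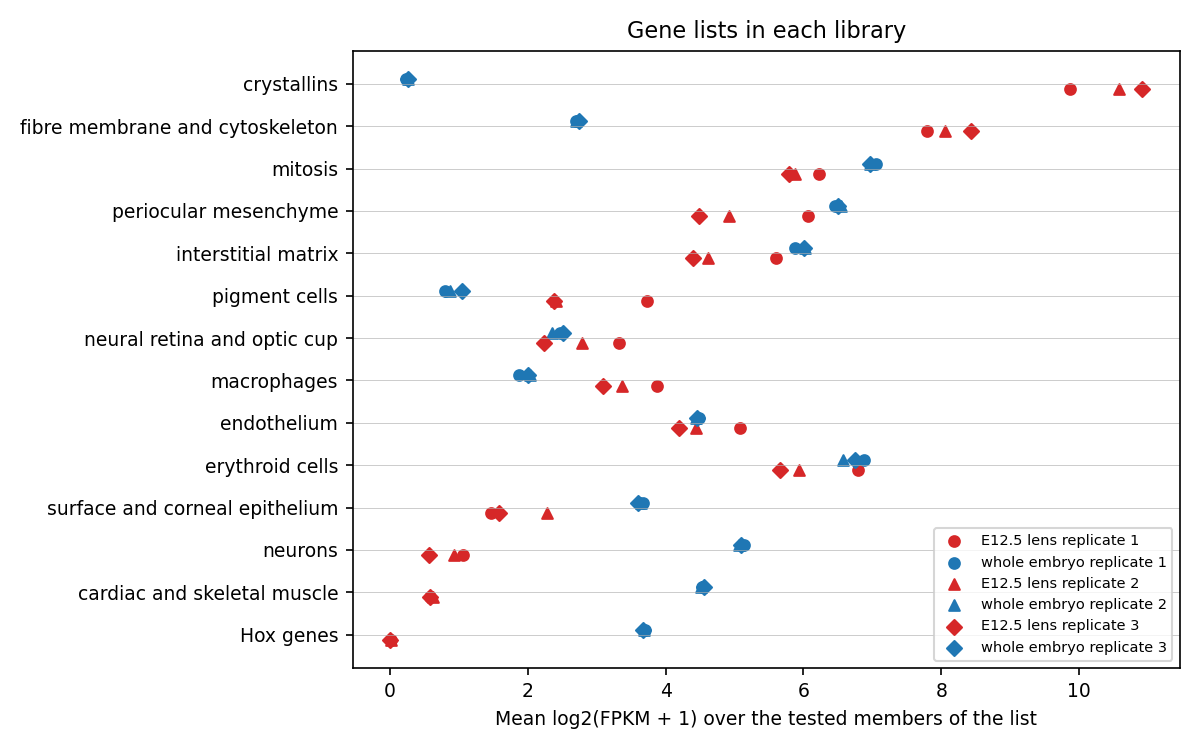
Mean log2(FPKM + 1) over the tested members of 14 gene lists in each library, E12.5 lens in red and whole embryo in blue, with a symbol for each replicate. Lens replicate 1 (red circle) is the lowest for crystallins, at 9.87, and the highest for periocular mesenchyme (6.07), interstitial matrix (5.60), pigment cells (3.72) and macrophages (3.87).

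**Figure D4:**
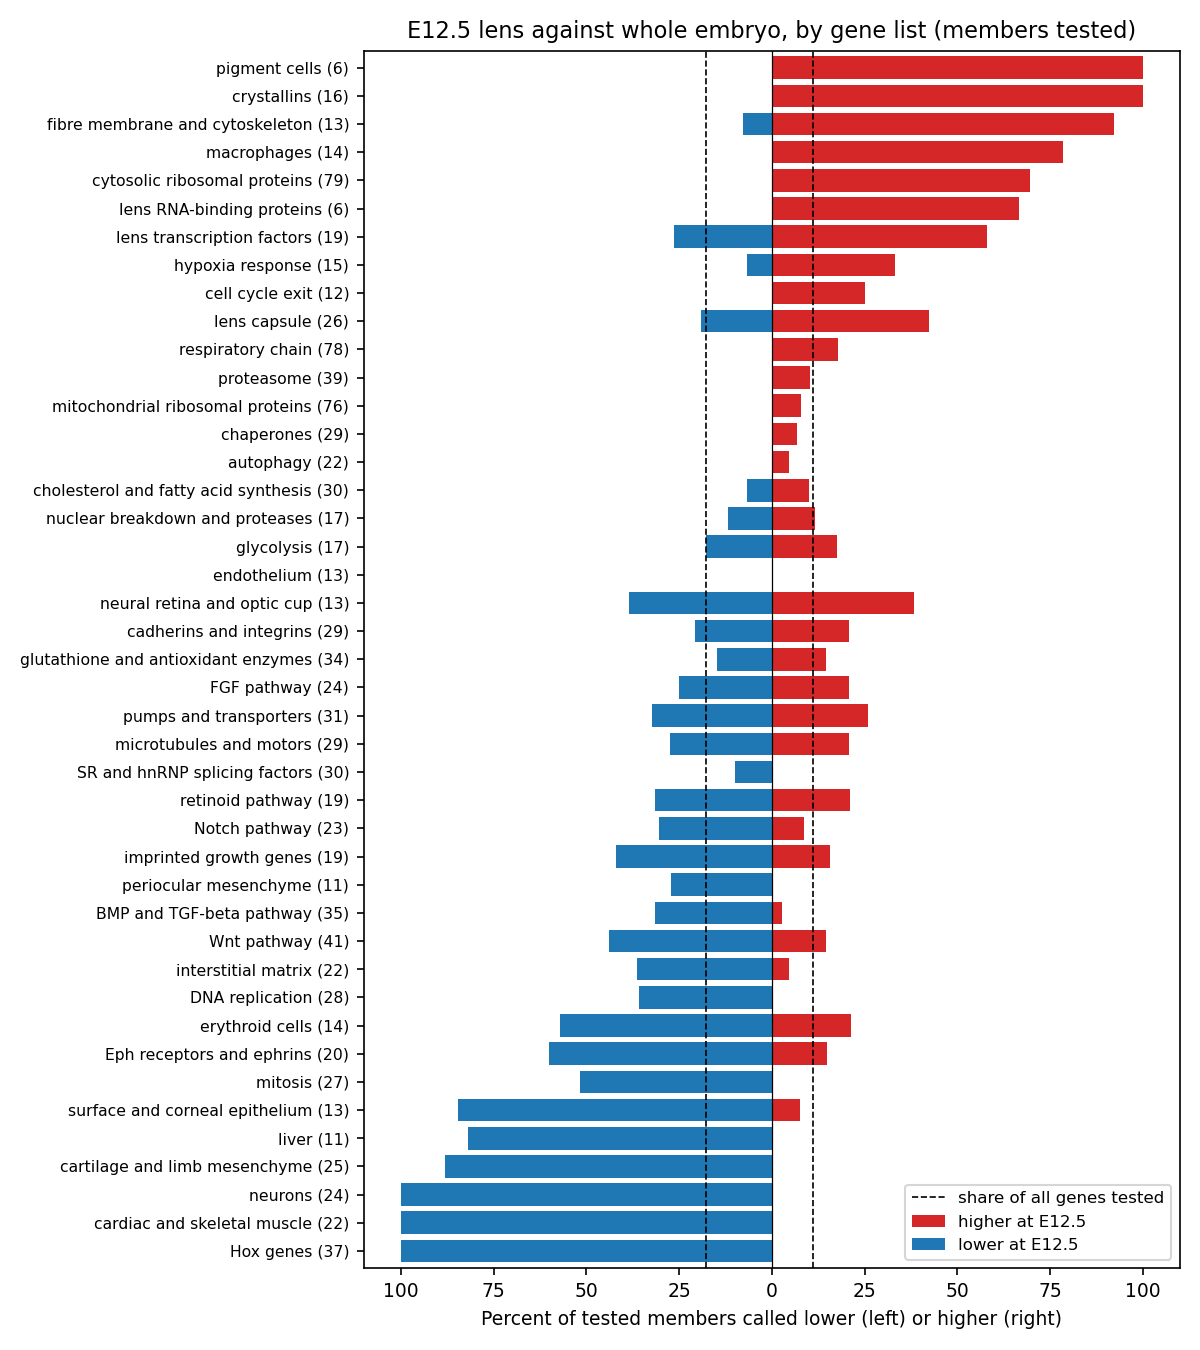
Percent of the tested members of each gene list called higher (right, red) or lower (left, blue) in E12.5 lens than in the whole embryo, with the number tested in brackets and dashed lines at the shares of all genes tested, 11.0% higher and 17.7% lower. Crystallins and pigment cells reach 100% higher, and Hox, muscle and neuronal genes 100% lower.

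Set between its neighbouring stages, E12.5 lens was above both or below both at few genes. Genes that rose or fell steadily from stage to stage are not counted here, and no crystallin was among those counted. The counts therefore do not give the number of genes that differed between E12.5 and either neighbour. Of 14535 genes 44 (0.303%) were at least 2-fold higher at E12.5 than at both E10.5 and E14.5, and 7 (0.0482%) were lower than at both, with p taken as the larger of the 2 limma p-values of a gene. The count of 44 was 36 without E12.5 replicate 1, with 30 genes shared, 17 when only these 3 stages were fitted, and 29 without E10.5 replicate 2. The 7 lower genes were called again in both of those fits, and 3 of them, Dusp4, Slc16a3 and Ttc23, lost the call with crystallins left out of the totals.

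The inhibitors of the INK4 locus, on chromosome 4, were higher at E12.5 than before or after. Cdkn2b stood at 16.4, 8.24 and 4.77 FPKM at E12.5 after 0.41, 0.14 and 0.39 at E10.5, and later at 0.96, 0.56 and 0.44 (E14.5) and 0.53, 0.56 and 0.74 (E16.5) (2.90 ± 0.28 over E10.5 and 2.57 ± 0.28 over E14.5, adjusted p = 0.000228). Cdkn2a stood at 6.66, 5.07 and 2.55 FPKM, against 0.14, 0 and 0.39 at E10.5 and 0, 0.28 and 0 at E14.5 (adjusted p = 0.0001). Both were above every other lens library in all 3 E12.5 libraries, and both were called in every alternative fit run. Both also fell from E12.5 replicate 1 to replicate 3, as the mean level of periocular mesenchyme markers did. Which cells made these transcripts was not tested. Cdkn1a, inhibitor p21, stood at 10.2, 10.6 and 7.89 FPKM against 2.43, 1.99 and 2.30 at E10.5 and 2.29, 1.48 and 1.74 at E14.5 (adjusted p = 0.00408), and was at a level like that of the whole embryo, 9.72, 11.2 and 10.2. Its call was lost with a pseudocount of 0.1.

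The retinaldehyde dehydrogenase Aldh1a2, known from mesenchyme around the eye, ranked first of the named genes by the smaller of its differences from E10.5 and E14.5. It was at 42.1, 28.4 and 22.6 FPKM at E12.5 against 1.14, 0.47 and 0.39 at E10.5 and 2.05, 2.13 and 1.92 at E14.5 (4.25 ± 0.24 and 3.35 ± 0.24, adjusted p = 1.67e-05), and at 46.1, 42.7 and 45.1 in the whole embryo. Hsd3b6, a steroid dehydrogenase, was at 48.4, 29.2 and 20.4 against 5.63, 1.55 and 2.72 and 0.96, 0 and 1.39. Heyl, a Notch target of vessels, was at 22.3, 17.1 and 12.4 against 1.74, 0.99 and 2.86 and 4.57, 2.13 and 3.02 FPKM. In all 3 genes E12.5 replicate 1 was the highest lens library and replicate 3 the lowest of its stage, still above both neighbours. Heyl and Hsd3b6 lost the call when only E10.5, E12.5 and E14.5 were fitted (adjusted p = 0.0519 and 0.0596 in limma). Hsd3b6 also lost it with a pseudocount of 0.1. Stmn4, a stathmin of neural cells, was at 26.9, 32.1 and 37.3 FPKM against 2.70, 2.44 and 2.18 and 8, 11.2 and 11.4 (3.26 ± 0.16 and 1.57 ± 0.16, adjusted p = 9.43e-05), with replicate 3 the highest.

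The other named genes were Hba-a1, Hba-a2, the platelet factor Pf4, the matrix proteoglycan Bgn, the prion-like Prnd and Tfap2b, a factor of periocular mesenchyme. Tfap2b was at 98.9, 40.9 and 31.1 FPKM against 19.5, 17.4 and 14.4 at E10.5 and 1.81, 0.93 and 0.9 at E14.5. All 6 lost the call when E12.5 replicate 1 was left out, though the smaller of the 2 differences was still 1.03 (Tfap2b) to 1.75 (Hba-a1) on the log2 scale, with adjusted p from 0.0525 to 0.159 in limma. Each also lost the call without at least 1 other library, and in the fit of these 3 stages alone. Members of the lists that were also higher at E12.5 than at both neighbours were Atoh7, Tbx18 and Nnat, and each was called without replicate 1. Nnat lost the call with crystallins left out and after quantile normalization. Periocular mesenchyme, macrophage, erythroid and pigment markers were highest in replicate 1, and their part in these differences was not tested.

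A few signalling and transport genes were lowest at E12.5. Dusp4, the phosphatase that ends ERK signals, was at 27.3, 24.9 and 27.3 FPKM at E10.5, 11.8, 12.2 and 11.1 at E12.5 and 25.04, 30.9 and 26.9 at E14.5 (-1.11 ± 0.09 and -1.17 ± 0.09, adjusted p = 2.79e-05). Slc16a3, a lactate carrier, went from 72.8, 82.2 and 91.8 to 20.2, 15.9 and 16.6 and 38.04, 40.5 and 43.6. Dab1, an adaptor of Reelin signals, was at 16.1, 10.1 and 12.2 against 35.7, 43.8 and 40.2 and 36.95, 40.4 and 34.7. No E12.5 library overlapped a neighbouring one in these genes. Ttc23 and Cdcp1 completed the named set, Cdcp1 at 0.16, 1.32 and 0.09 FPKM against 18.8, 18.3 and 17.3 and 5.18, 4.45 and 3.57. With reference transcripts alone 3 of the 7 genes were called again, Slc16a3 among the 5 named.

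**Figure D5:**
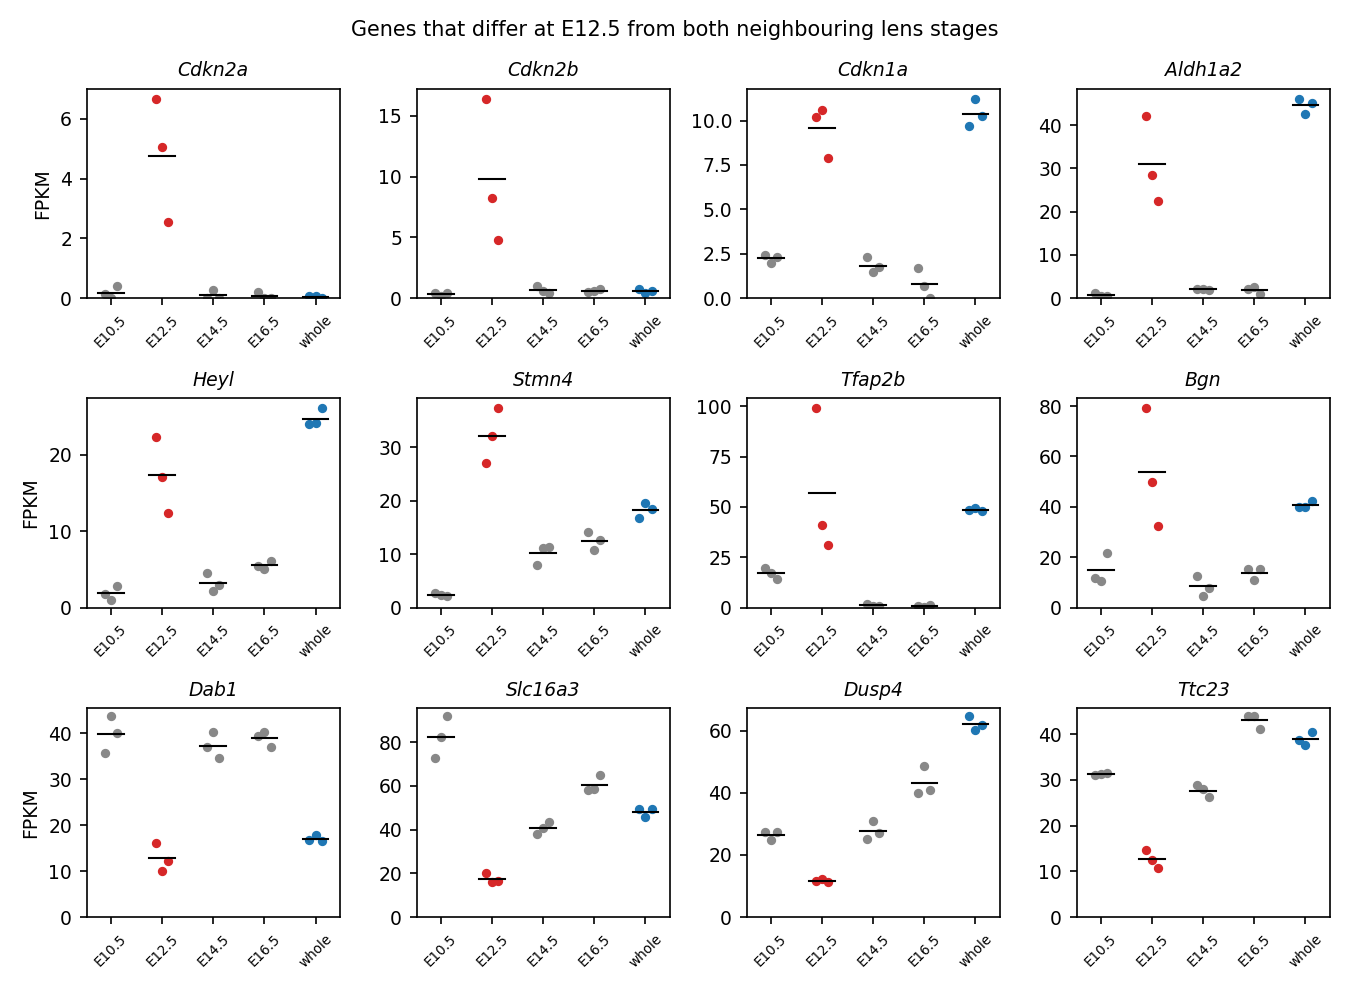
FPKM of 12 genes in each library, by lens stage and in the whole embryo (blue), with E12.5 in red and a bar at the mean of 3. From Cdkn2a to Bgn the E12.5 libraries lie above both neighbouring stages, as in Cdkn2b at 4.77 to 16.4 FPKM, and for Dab1, Slc16a3, Dusp4 and Ttc23 they lie under both, as in Dusp4 at 11.1 to 12.3.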

How the data were processed

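FPKM values per transcript were deposited by the authors in 1 table for all 15 libraries. Per the submitters' processing notes the tools were TopHat2 2.0.9, Trimmomatic, Cuffnorm and Cufflinks, and the build mm10. The order and settings of these steps are not given in the sources used here, nor are strand, normalization and depth, so the precision that depth allows is unknown. The table lists no transcript that reached 1 FPKM in fewer than 2 libraries.

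From these, gene values were summed over 48306 transcripts by symbol, without 172 that overlap an exon on the opposite strand (class x). The filter kept genes at or above 1 FPKM in 3 or more libraries. A value listed at 0 beside a replicate of at least 50 FPKM was treated as missing (8 values of Cryaa, Cryba1 and Nufip2, all at E14.5 or E16.5), which leaves Cryaa 1 library at E14.5. limma 3.58.1 (R 4.3.3) was fitted to all 15 libraries on log2(FPKM + 1), by group, with eBayes and a trend, and Benjamini-Hochberg adjustment over 14535 genes. Counts over lists have no test. Replicates are labelled biological, and no replicate block was used, since matching numbers did not pair lens with whole embryo (r = 0.03, 0.05 and -0.02). On simulated data with 200 changed genes among 14532, 92% of 2-fold changes were recovered at an adjusted p under 0.05 and 13 unchanged genes were called. This recovery used the adjusted p alone, so it does not give the sensitivity of calls that also required a 2-fold difference.

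Named genes are the top 15 by fold change in each direction at a mean of at least 10 FPKM without overlap, list members, and up to 10 in each direction against both neighbours; a few of these are not reported here. The comparison, its 43 lists and the rule were chosen with earlier results of these data known. Coordinates are from GENCODE vM21 (mm10). Alternatives covered the pseudocount, the filter, a replicate block, the groups fitted, eBayes without the trend, rescaling, reference transcripts alone, the fold minimum, each library left out and, chosen after seeing the data, pseudogenes added to parents. Figures used matplotlib 3.10.9.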

Additional observations from a re-analysis of the deposited data

Results flagged for a closer look

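In 23 list genes the difference from the whole embryo was at least 2-fold at E12.5 and at least 2-fold the other way at a neighbouring stage, with the difference between the stages called by limma (adjusted p at most 0.000321). All comparisons share the same 3 whole-embryo libraries. Against E10.5, the fibre genes Tmod1 (2.64 at E12.5, -2.16 at E10.5) and Nrcam (2.98, -1.92) turned from lower to higher than the whole embryo, with Cdkn1c (1.39, -1.20), Fgfr3 (1.33, -2.94), Lfng (1.44, -1.35), Wnt7b (1.20, -1.59), Col6a3 (2.28, -1.75), Ndrg1 (1.15, -1.62) and the adult globins Hbb-bs (1.17, -3.62) and Hbb-bt (1.61, -1.93). The surface epithelium genes Krt8 (-2.48, 1.77), Epcam (-1.59, 2.19), Grhl2 (-2.10, 1.57) and Esrp1 (-2.36, 2.14) turned from higher to lower, with the matrix gene Tnc (-1.95, 1.77) and the apolipoprotein Apoa1 (-2.71, 2.24). Against E14.5, Wnt7a was lower at E12.5 (-1.12) and higher at E14.5 (3.61). Aldh1a3 (3.11, -1.43), Col15a1 (1.26, -1.04) and the macrophage genes Csf1r (1.78, -1.76), C1qb (1.84, -1.33), C1qc (1.86, -1.25) and Cx3cr1 (1.58, -1.64) were higher at E12.5 and lower at E14.5. Col15a1, Hbb-bs and Wnt7a lost their E12.5 call without lens replicate 1, Wnt7a also without lens replicate 2, and Ndrg1 without lens replicate 3.

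Assembled transcripts that overlap an exon on the opposite strand were left out of all gene sums. Of these, 5 averaged over 10 FPKM in E12.5 lens with every lens value several-fold above every whole-embryo value. They are named for the gene they overlap: Hmx1 (27.4 and 11.3 FPKM for 2 transcripts, against 0.33 and 0.18), Gm4524 (23.6 against 1.94), Spon1 (18.0, listed at 0 in the whole embryo) and Wwox (16.8 against 0.57).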

How the results depend on the processing

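Among 16567 values of 1105 named genes and list members under the alternatives other than the fold minimum, 16171 kept their call or lack of one, 214 lost a call, 177 gained one and 5 turned direction. With reference transcripts alone Bmpr1a stood at 1.13, Znrf3 at 1.33, Cox6a2 at -1.38 and Eno1 at -0.11, and after quantile normalization H19 stood at -0.81; the cause was not tested. Without the fold minimum 4692 genes were higher and 5391 lower than in the whole embryo, and 71 higher and 32 lower than at both neighbours. The 44 genes higher than at both neighbours became 17 in a fit of those 3 stages alone, 22 with a pseudocount of 0.1, 26 with reference transcripts alone and 29 without E10.5 replicate 2. Leaving out each library in turn gave 1558 to 1685 genes higher and 2374 to 2809 lower than the whole embryo, and 29 to 47 higher and 7 to 9 lower than both neighbours. A replicate block gave 1602, 2571, 45 and 8 and changed no call among the 1105 genes; replicate numbers carry no stated pairing. Adding named pseudogenes to their parents gave 1597, 2514, 44 and 7. Depth is unknown, so values near 0 cannot be given a limit.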
